A study of Mus musculus with 12 samples.

Results

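The comparison described here set infarcted mouse hearts collected at ZT23 (Wake-MI) against infarcted hearts collected at ZT11 (Sleep-MI), with 3 arrays in each group, so that 6 of the 12 arrays of the study carried it. The arrays were chosen by their group labels and not by any measured value. Zeitgeber time (ZT) counts hours from lights on, so ZT23 lies at the end of the dark, active period of a mouse and ZT11 at the end of the light, rest period. The study measured messenger RNA in hearts of C57Bl/6 mice, an inbred strain, on single-colour Affymetrix arrays with 1 mouse per array. Myocardial infarction (MI) was caused by closing a main coronary artery, the left anterior descending. Wake-MI mice were operated between ZT13 and ZT15 and Sleep-MI mice between ZT1 and ZT3, and both were killed 8 hours later. Sham-operated mice on the same 2 schedules (Wake-SH at ZT23 and Sleep-SH at ZT11, 3 arrays each) served as the comparison without infarction. The time of surgery and the time of collection changed together, so a difference between Wake-MI and Sleep-MI belongs to both and the 2 cannot be told apart. All 12 mice had open surgery, and no heart without surgery was analysed. The MI samples are labelled as infarcted myocardium, while for age, sex and the region taken from sham hearts the sources used here hold no entry.

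Heart cells carry their own circadian clock. In its positive limb, Bmal1 (gene symbol Arntl) pairs with Clock or Npas2 and switches on genes through E-box sequences. Among these genes are the Per and Cry repressors, the Rev-erb receptors Nr1d1 and Nr1d2, and the PAR bZIP activators Dbp, Tef and Hlf. Rev-erb receptors repress Arntl, Npas2 and Nfil3, and they compete with Ror receptors for the same sites. PAR bZIP proteins act through D-boxes, which Nfil3 also binds, as a repressor. In rodent heart, Arntl is known to be high around the end of the dark period, and Dbp and the Rev-erb genes around the end of the light period.

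Sequence upstream of 4 genes with a match to a clock-type site is shown as examples: Nr1d2, Cry1 and Bmi1 differed between the infarcted groups, and Per3 is a core clock gene with 2 D-box matches. Dbp and Gsta3 also differed, but their windows held no match and are not shown. Per1 and Tef, which also held more than 1 match, are not shown either. Each line gives the 250 bases before a RefSeq transcription start in GRCm38.p6, 5' to 3' along the gene. Capitals mark matches to the E-box CACGTG, to the D-box TTATGTAA, or to the half-site AGGTCA that Rev-erb and Ror receptors recognise, searched on both strands. The windows are chr14:18239107-18239356 (minus strand) for Nr1d2, chr10:85185055-85185304 (minus strand) for Cry1, chr2:18676768-18677017 (plus strand) for Bmi1 and chr4:151044666-151044915 (minus strand) for Per3.
Nr1d2: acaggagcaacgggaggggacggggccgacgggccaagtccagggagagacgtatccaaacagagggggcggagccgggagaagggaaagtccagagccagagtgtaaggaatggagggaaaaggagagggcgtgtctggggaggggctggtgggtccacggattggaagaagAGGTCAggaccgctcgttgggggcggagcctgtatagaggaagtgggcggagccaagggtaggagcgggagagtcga
Cry1: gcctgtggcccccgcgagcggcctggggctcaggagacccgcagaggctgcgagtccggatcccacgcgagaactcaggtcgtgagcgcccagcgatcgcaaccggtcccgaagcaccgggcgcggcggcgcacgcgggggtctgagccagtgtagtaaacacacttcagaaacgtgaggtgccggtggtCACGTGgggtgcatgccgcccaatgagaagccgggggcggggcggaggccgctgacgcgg
Bmi1: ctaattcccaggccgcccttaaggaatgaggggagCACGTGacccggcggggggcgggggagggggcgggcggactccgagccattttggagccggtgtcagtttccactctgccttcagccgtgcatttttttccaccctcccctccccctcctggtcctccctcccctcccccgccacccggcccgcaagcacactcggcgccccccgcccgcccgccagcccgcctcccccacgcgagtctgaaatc
Per3: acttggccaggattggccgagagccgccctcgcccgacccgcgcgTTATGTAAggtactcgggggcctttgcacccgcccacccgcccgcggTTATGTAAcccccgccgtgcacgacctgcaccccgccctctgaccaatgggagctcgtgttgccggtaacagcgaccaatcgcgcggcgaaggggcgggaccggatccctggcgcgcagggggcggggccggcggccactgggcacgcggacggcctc
The Nr1d2 window held 1 half-site whose first base lay 77 bases before the start. The Cry1 window held 1 E-box at 60 bases, the Bmi1 window 1 E-box at 215 bases, and the Per3 window 2 D-boxes at 205 and 158 bases. None of these matches overlapped another. Of 19 genes looked up (the 16 core clock genes tested and the other 3 genes called), 16 had a window. Tcap, Per2 and Bhlhe40 had none. An E-box match was found for 4 of the 16 genes (Cry1, Bmi1, Per1 and Tef), a D-box for 1 (Per3) and a half-site for 4 (Nr1d2, Clock, Nfil3 and Per1). Across all 32851 windows of the same length, 6.02% held the E-box, 0.819% the D-box and 14% the half-site. The 16 genes had 21 windows, so these shares per window are not the same measure as the counts per gene. A match is a stretch of letters and was not tested as a binding site.

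Few genes differed between the infarcted hearts of the 2 times. Of 8101 genes tested, 6 differed between Wake-MI and Sleep-MI, or 0.0741% (limma, adjusted p below 0.05 after Benjamini-Hochberg adjustment over all genes tested). The Rev-erb receptor gene Nr1d2, the PAR bZIP gene Dbp and the sarcomere gene Tcap were lower in Wake-MI hearts. The clock repressor gene Cry1, the glutathione S-transferase gene Gsta3 and the Polycomb gene Bmi1 were higher. All 6 had the same sign in sham hearts. Signals are MAS5 intensities on a linear scale, and every fold change is a ratio after adding 16 to each signal, so that changes of dim genes come out too small. SE is the standard error of the log2 difference, which is Wake minus Sleep throughout.

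Nr1d2 codes for Rev-erb beta, a nuclear receptor that represses Arntl and metabolic genes, and its upstream half-site is shown above. Its signal was 387, 314 and 532 on the Wake-MI arrays, against 1119, 1134 and 1145 on the Sleep-MI arrays. All 3 Wake-MI arrays lay far below all 3 Sleep-MI arrays, which were nearly equal. The gene was 2.75-fold lower in Wake-MI hearts (log2 -1.46, SE 0.18, adjusted p = 0.00702). In sham hearts it was 364, 549 and 354 at ZT23, against 1423, 1633 and 1434 at ZT11, a log2 difference of -1.81. Of its 2 probe sets, 1 reached the level filter, and with probe sets averaged per gene the log2 difference of -0.90 was not called (adjusted p = 0.134). Dbp, an activator of drug metabolism and other output genes of the clock, read 84, 102 and 190 on Wake-MI arrays, against 595, 492 and 315 on Sleep-MI arrays. The groups did not overlap, but both spread widely: replicate 3 was the highest Wake-MI and the lowest Sleep-MI array. Dbp was 3.48-fold lower in Wake-MI hearts (log2 -1.80, SE 0.28, adjusted p = 0.0274), and both of its probe sets were called. The sham difference was log2 -2.99, from 105, 59.5 and 107 at ZT23 against 814, 682 and 963 at ZT11.

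Tcap codes for telethonin, a protein that caps titin at the Z-disc of heart and skeletal muscle, and it is listed among clock-controlled genes of heart. Its signal was 3298, 3135 and 3129 in Wake-MI hearts, against 4627, 4804 and 5074 in Sleep-MI hearts. The arrays of each group lay close together and the groups were well apart. The 1.51-fold lower level (log2 -0.60, SE 0.09, adjusted p = 0.0212) compares with a 2.33-fold lower level in sham hearts (log2 -1.22), where the arrays read 2301, 2117 and 2261 at ZT23 and 5412, 4713 and 5547 at ZT11. The Sleep-MI and Sleep-SH arrays thus lay in one range, from 4627 to 5547, while every Wake-MI array was above every Wake-SH array. The difference between the MI and sham differences was log2 0.62 and missed the threshold (adjusted p = 0.13).

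Cry1, a repressor of the Bmal1 complex whose messenger is known to peak later than those of the Per genes, read 104, 114 and 120 in Wake-MI hearts, against 43.2, 44.9 and 42.5 in Sleep-MI hearts. Both groups were tight and did not overlap. It was 2.16-fold higher in Wake-MI hearts (log2 1.11, SE 0.14, adjusted p = 0.00702). Its sham difference of log2 0.55 did not pass the test (adjusted p = 0.0771), with 86.9, 79.6 and 66.0 at ZT23 and 41.6, 62.7 and 40.8 at ZT11. The difference between the 2 differences (log2 0.56, adjusted p = 0.339) did not pass either. Gsta3, an enzyme that joins glutathione to reactive compounds, read 76.6, 69.8 and 68.4 in Wake-MI hearts, against 39.4, 38.5 and 27.9 in Sleep-MI hearts. It was 1.72-fold higher (log2 0.78, SE 0.12, adjusted p = 0.0304), with no overlap. The Sleep-MI arrays were the lowest of the 4 groups, since sham hearts read 92.2, 90.8 and 100.2 at ZT23 and 64.5, 74.7 and 62.8 at ZT11. One of its 2 probe sets was called. Bmi1, a Polycomb protein that represses the cell cycle inhibitor locus Cdkn2a, read 419, 451 and 414 against 281, 266 and 271. It was 1.54-fold higher in Wake-MI hearts (log2 0.62, SE 0.10, adjusted p = 0.047), without overlap. Its sham difference was log2 0.15 (adjusted p = 0.569), and with probe sets one by one neither of its 2 was called.

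**Figure D1:**
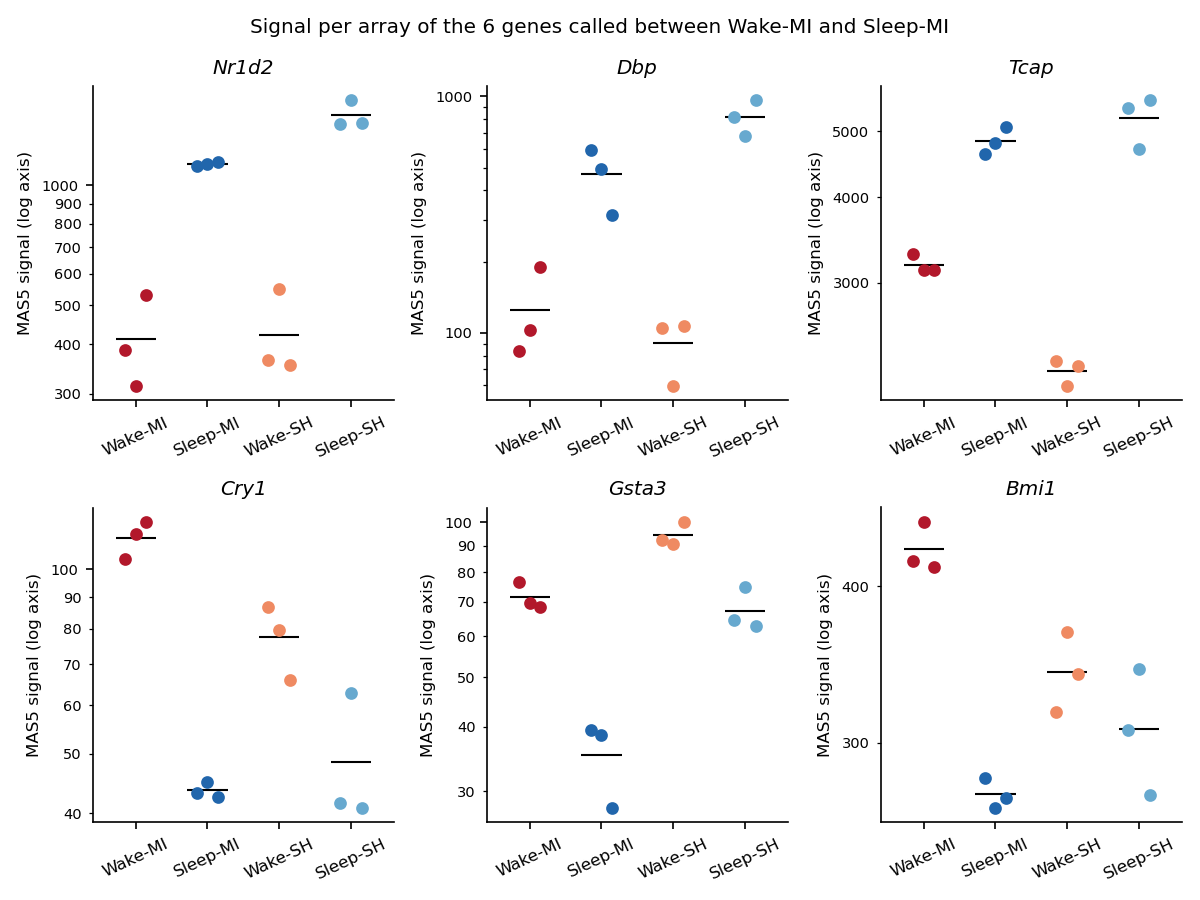
MAS5 signal (log axis) of the 6 genes called between Wake-MI and Sleep-MI hearts, 1 point per array, with a line at the mean of each group of 3. In each panel the 3 Wake-MI points lie on one side of the 3 Sleep-MI points, below them for Nr1d2, Dbp and Tcap and above them for Cry1, Gsta3 and Bmi1. Sham groups stand to the right.

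The 6 calls did not rest equally well on the single arrays. Nr1d2 stayed called in 11 of 12 fits that each left out 1 array, Cry1 in 10, Dbp in 6, Tcap in 5, and Gsta3 and Bmi1 in 2 each. No gene passed without Sleep-MI replicate 1 (0 genes by limma, 444 at an unadjusted p below 0.05), although all 6 kept their sign in all 26 alternative fits. The count was 1 without Wake-MI replicate 2, 2 without Wake-MI replicate 1, Sleep-MI replicate 2 or Wake-SH replicate 1, and 3 without Sleep-MI replicate 3 or Sleep-SH replicate 1. At an unadjusted p below 0.05, 540 genes (6.67%) differed in MI hearts, 308 higher and 232 lower in Wake-MI. The median log2 difference over all genes was 0.0053, the median absolute difference 0.11 and the median SE 0.14. For 7944 genes (98.1%) the 95% interval of the difference lay within 1 on the log2 scale in either direction, and for 5299 (65.4%) within 0.5. Wake-MI and Sleep-MI arrays did not overlap for 881 genes, or 10.9%.

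The MI groups were alike in most quality values. Over genes, which are no independent replicates, arrays correlated at 0.974 to 0.985 within Wake-MI, 0.985 to 0.988 within Sleep-MI and 0.977 to 0.989 between these groups, so a Wake-MI array was about as like a Sleep-MI array as another of its own group. The 3' to 5' ratio of the beta-actin control, a sign of RNA breakdown where it is high, averaged 2.60 ± 0.62 in Wake-MI and 2.40 ± 0.45 in Sleep-MI hearts (SD, n = 3 each). It was highest on replicate 3 of both groups, 3.31 in Wake-MI and 2.92 in Sleep-MI. With this ratio as a covariate 6 genes were called between Wake-MI and Sleep-MI, 5 of the 6 above and Arntl in place of Bmi1. Without both replicates 3, 5 genes were called, of which Nr1d2 and Dbp were the only 2 of the 6, while Cry1, Tcap, Gsta3 and Bmi1 lost their call. The other 3, named after their values were seen, were Arntl, Ephx1 and Prelp. The hybridisation controls added to each array averaged 9.81 ± 0.08 on the log2 scale in Wake-MI and 9.68 ± 0.01 in Sleep-MI hearts and did not overlap. Wake-SH arrays lay below all others in both values. Their beta-actin ratio averaged 1.79 ± 0.02, against 2.18 ± 0.28 in Sleep-SH, and their hybridisation controls 9.41 ± 0.03, against 9.67 ± 0.07. With the ratio as a covariate, the genes called between Wake-SH and Sleep-SH fell from 123 to 41. The part of the hybridisation controls in the results was not tested. Summed signals of 8 ventricular muscle markers were 68985 to 84771 on Wake-MI and 74343 to 84580 on Sleep-MI arrays, and all 8 were measured, so the samples held ventricular muscle. Sham arrays summed to 64971 to 74546 in Wake-SH and 58509 to 82313 in Sleep-SH, so these markers do not mark infarction. The 5 lymphocyte markers with a probe set were below a signal of 16 on all 6 MI arrays.

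Among core clock genes as a group, the direction of the time-of-day difference in infarcted hearts was mostly that of sham hearts and the size was mostly smaller. Of the 16 core clock genes tested, 13 had the same sign in MI and sham, against 49.7% of all 8101 genes. The absolute difference was smaller in MI for 14 of the 16, against 4636 of all 8101 genes. In MI 3 of the 16 were called and 8 passed an unadjusted p below 0.05, against 0.0741% and 6.67% of all genes. In sham 10 were called, where 1.52% of all genes were. The exceptions in size were Cry1 and Rora. The difference between MI and sham passed an unadjusted p below 0.05 for 9 of the 16 and the adjusted threshold for none, as for 0% of all genes, the lowest adjusted p of the 16 being 0.132. The MI and sham differences share no array.

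The genes listed with the Bmal1 arm (Arntl, Clock, Npas2, Cry1, Nfil3 and Rora, 6 tested of 8 listed) all had positive differences in MI, with a median of log2 0.63, against 0.58 in sham. Rora kept that sign in 21 of 26 alternative fits. Cry1, a repressor of the Bmal1 complex, was placed in this list and Cry2 in the other. The lists were chosen with earlier results of these data known, so the shared sign is no independent result. Of the 6 genes tested, Cry1 alone was called. Arntl2 lay below the level filter, and the other gene listed was not analysed here. Arntl, the partner of Clock, read 117, 110 and 56.9 in Wake-MI hearts, against 26.3, 33.6 and 33.7 in Sleep-MI hearts. The groups did not overlap, and Wake-MI replicate 3 was well below the other two. Its log2 difference of 1.19 (SE 0.21) came close to the threshold (adjusted p = 0.056). It passed in 1 of 12 fits that each left out 1 array, the fit without Wake-MI replicate 3 (log2 1.46). In sham hearts Arntl was called, at log2 1.67 (adjusted p = 0.0012), with 113, 133 and 98.0 at ZT23 against 26.4, 18.6 and 30.6 at ZT11. Nfil3, the repressor at D-boxes, read 453, 430 and 433 in Wake-MI hearts, against 293, 226 and 280 in Sleep-MI hearts. The groups were apart by log2 0.69 (SE 0.15, adjusted p = 0.321), not called. The same gene was called in sham at log2 1.35, where the signals were lower at both times, with 226, 206 and 229 at ZT23 and 86.9, 93.2 and 54.2 at ZT11. Npas2, a paralogue of Clock, differed by log2 0.56 (SE 0.21, adjusted p = 0.692) in MI and 0.62 in sham. Clock differed by 0.15 against 0.54, and the Ror receptor gene Rora by 0.09 against -0.04, and none of these 3 genes was called in either.

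In the arm of the Per, Rev-erb and PAR bZIP genes (10 tested of 12 listed), 2 genes, Nr1d2 and Dbp, fell in Wake-MI hearts. In sham hearts 8 of the 10 were called, all lower at ZT23. The median log2 difference was -0.31 in MI and -1.05 in sham. Bhlhe41 lay below the level filter and Ciart was not analysed here. The second Rev-erb gene, Nr1d1, read 18.1, 35.1 and 27.1 in Wake-MI hearts, against 95.6, 81.2 and 48.7 in Sleep-MI hearts. The groups did not overlap, but the log2 difference of -1.08 (SE 0.27) was not called (adjusted p = 0.487), and the sham difference of -1.34 was (adjusted p = 0.027). Per3, whose window holds both D-boxes, had low signals of 11.4, 15.3 and 39.3 in Wake-MI hearts, against 34.2, 31.0 and 56.1 in Sleep-MI hearts. Replicate 3 was the highest in both groups, and the groups overlapped. Its log2 difference was -0.62 (SE 0.24, adjusted p = 0.692) in MI and -1.46 in sham, where it was called.

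Per1 and Per2, which code for the repressors that light and stress signals also induce, showed the smallest MI differences among the clock genes called in sham hearts. Per1 read 207, 174 and 202 in Wake-MI hearts, against 216, 198 and 194 in Sleep-MI hearts. The groups overlapped, and the log2 difference of -0.06 had a 95% interval from -0.38 to 0.26. In sham hearts Per1 read 84, 122 and 76.9 at ZT23, against 203, 247 and 187 at ZT11, a log2 difference of -1.06 (adjusted p = 0.003). All 6 MI arrays therefore lay near the Sleep-SH arrays and above the 3 Wake-SH arrays. The difference between the 2 differences was log2 1.004 (adjusted p = 0.132). Per2 read 59.1, 80.3 and 66.3 in Wake-MI hearts, against 63.0, 67.2 and 88.9 in Sleep-MI hearts, a log2 difference of -0.07 with an interval from -0.40 to 0.26. Its sham difference was -0.86 (adjusted p = 0.0125). Tef, the PAR bZIP relative of Dbp, differed by -0.24 in MI and -0.95 in sham, and Hlf, which was called in neither, by 0.11 and -0.66. Bhlhe40, a repressor at E-boxes, differed by -0.39 and -1.03, and Cry2 by 0.16 and -0.38. In MI none of these genes passed the test.

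**Figure D2:**
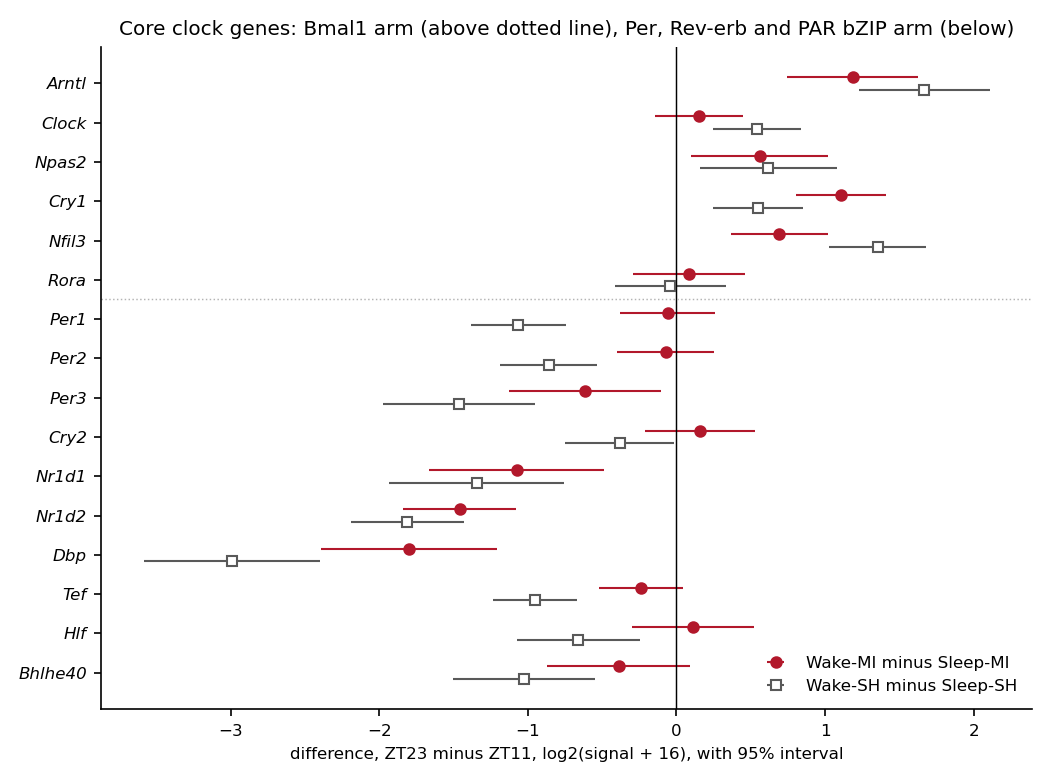
Difference ZT23 minus ZT11 on the log2(signal + 16) scale for 16 core clock genes, in MI hearts (filled circles) and sham hearts (open squares), with 95% intervals and 3 arrays in each group. In MI hearts the points of the Bmal1 arm lie right of 0, but those of Clock and Rora lie near it, with intervals that include it. Per1, Per2, Cry2 and Hlf also lie near 0 in MI hearts, with intervals that include it, and the intervals of Tef and Bhlhe40 include 0 too.

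The lists of genes that act on clock proteins or lie downstream of the clock had MI medians near 0. Of 13 clock kinases, ligases and cofactors tested, 0 were called (limma, 0 also at an unadjusted p below 0.05), with a median log2 of 0.097. The ubiquitin ligase gene Btrc had the smallest adjusted p (log2 0.29, adjusted p = 0.814). Of 21 clock-controlled genes, 1 (Tcap) was called in MI, against 0.0741% of all genes. At an unadjusted p below 0.05 (limma), 2 were higher and 3 lower in Wake-MI, against 6.67% of all genes. The median was -0.051 in MI and -0.26 in sham. In sham 5 were called, all lower at ZT23, against 1.52% of all genes. The other 4 called in sham were chosen for naming after their values were seen. Tspan4, a tetraspanin, read 235, 267 and 215 in Wake-MI hearts, against 331, 323 and 350 in Sleep-MI hearts (log2 -0.46, SE 0.15, adjusted p = 0.598). The groups did not overlap, and the sham difference was -1.41. Noct (nocturnin, whose messenger cycles in many tissues), Wee1 (a cell cycle kinase) and Herpud1 (endoplasmic reticulum protein degradation) differed by -0.05, -0.12 and -0.06 in MI, against -1.06, -0.71 and -1.17 in sham. Noct read 734, 858 and 620 in Wake-MI hearts and 829, 687 and 764 in Sleep-MI hearts, which overlapped. Its sham arrays read 328, 299 and 342 at ZT23 and 830, 755 and 522 at ZT11. Dgat2, which makes triglycerides, read 2041, 1892 and 1856 in Wake-MI hearts, against 1397, 1370 and 1452 in Sleep-MI hearts. It differed by log2 0.45 (SE 0.10, adjusted p = 0.364) without overlap in MI and by -0.03 in sham.

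To ask which time-of-day differences persisted, the genes called between Wake-SH and Sleep-SH were read on the MI arrays. There were 123 such genes, 1.52% of those tested, with 34 higher and 89 lower at ZT23. Because these genes were picked for their sham difference, that difference is overstated by the choice. The MI differences come from arrays that did not enter the sham differences, but all 12 arrays entered the spread by which the genes were called, and with the sham arrays alone 69 genes were called. The sham count was 30 without Wake-SH replicate 1, 35 without Sleep-SH replicate 2, 42 without Wake-SH replicate 3, 51 without Sleep-SH replicate 1 and 226 without Sleep-SH replicate 3. In MI hearts 80 of the 123 (65.0%) kept the sign of the sham difference, against 49.7% of all genes. The MI and sham signs matched for 22 of the 34 genes higher and 58 of the 89 genes lower at ZT23. MI arrays were apart in the sham direction for 21 genes and in the opposite direction for 7, against 464 and 417 over all 8101 genes. The median absolute log2 was 0.16 in MI and 0.94 in sham. The MI value was the smaller for 123 of 123, against 4636 of all 8101 genes, and the choice by sham difference favours this. Across these genes the MI and sham differences correlated at r = 0.50, a description of genes that share arrays, and across all genes at 0.03. Without the 10 core clock genes among them, 70 of 113 genes (61.9%) kept their sign, and r was 0.36.

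Nr1d2, Dbp and Tcap were called in both comparisons and fell in both, which is 50% of the 6 genes called in MI and 2.44% of the 123 called in sham. A further set passed only an unadjusted p below 0.05 in MI. In all, 19 of the 123 (15.4%) did so with the sham sign, against 3.59% of all genes, and 1 did so with the opposite sign. Of these 19, 6 were core clock genes (Arntl, Nfil3, Dbp, Nr1d2, Nr1d1 and Per3), and 13 were not. The 13 were named after their values were seen, and 12 of them were not called in MI. Those with positive differences were Adam19, a metalloprotease (MI log2 0.61 and sham log2 1.37), Gtf2ird1, a transcription factor (0.44 and 0.73), Mlxipl, the glucose-responsive factor ChREBP (0.39 and 0.68), Nup62 of the nuclear pore (0.39 and 0.72), Car2, a carbonic anhydrase (0.36 and 0.58), Ccna2 or cyclin A2 (0.34 and 0.59), and Speg, a striated muscle kinase (0.26 and 0.54). Those with negative differences besides Tcap were Slc25a33, a mitochondrial nucleotide carrier (MI log2 -0.83 and sham log2 -1.87), Frmd4b (-0.54 and -0.95), Tspan4 (-0.46 and -1.41), Gdap10 (-0.35 and -1.09) and Timp3, an inhibitor of metalloproteases (-0.29 and -1.35). Gtf2ird1 read 87.6, 84.2 and 71.6 in Wake-MI hearts, against 52.9, 56.3 and 57.9 in Sleep-MI hearts, without overlap. Slc25a33 read 400, 240 and 374 in Wake-MI hearts, against 728, 493 and 604 in Sleep-MI hearts, also without overlap. The gene with the opposite sign was Pttg1ip, with log2 0.34 in MI and -0.48 in sham.

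**Figure D3:**
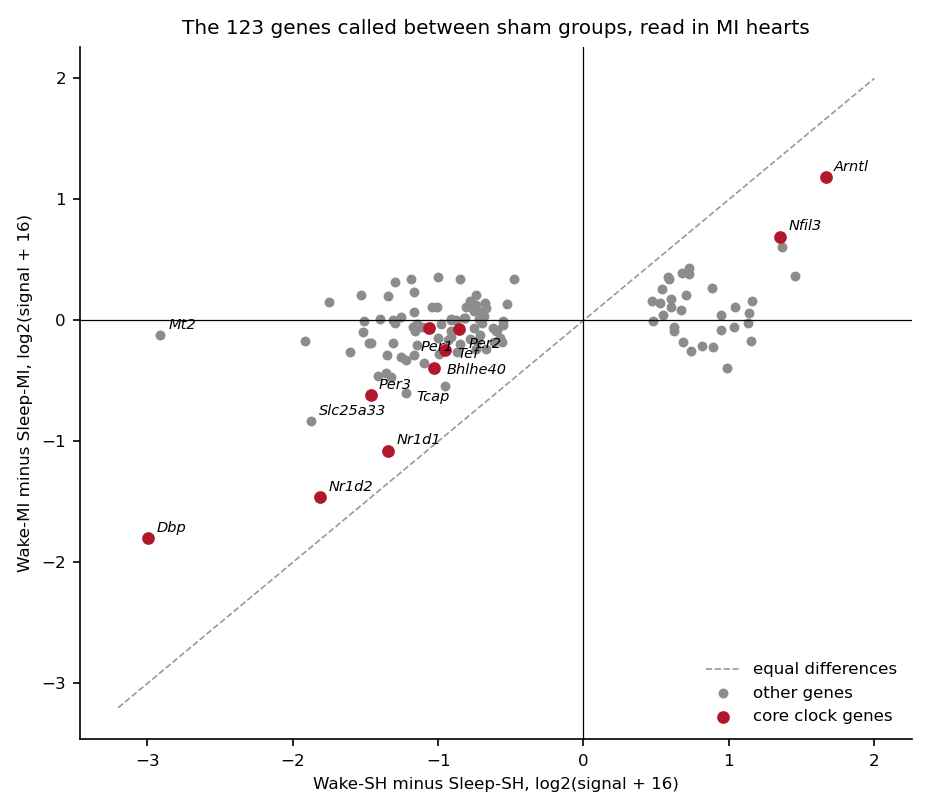
Each point is 1 of the 123 genes called between Wake-SH and Sleep-SH, with its sham difference on the x axis and its MI difference on the y axis, both ZT23 minus ZT11 on the log2(signal + 16) scale. Core clock genes are red. The dashed line marks equal differences. Dbp, Nr1d2, Arntl and Nr1d1 lie farthest from 0 on the y axis, and most other genes lie near 0 on it, Mt2 among them.

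For most of the sham-called genes the MI groups were close together. The 95% interval of the MI difference excluded the size seen in sham for 116 of 123 genes, against 472 of all 8101 genes. The difference between the 2 differences had an unadjusted p below 0.05 (limma) for 107 of the 123, against 852 of all 8101 genes. These counts share the sham values that chose the genes. Over all 8101 genes, 0 passed an adjusted p below 0.05 for the difference between MI and sham (0%, limma), 852 passed unadjusted, and the count was 35 without Sleep-SH replicate 3, 23 without Wake-SH replicate 2, 1 without Sleep-SH replicate 1 and 39 with array weights. The smallest adjusted p was that of Timp3. It read 1401, 1422 and 1498 in Wake-MI hearts, against 1593, 1856 and 1847 in Sleep-MI hearts, and 501, 610 and 598 in Wake-SH hearts, against 1452, 1628 and 1345 in Sleep-SH hearts. Its Wake-SH arrays were the low ones, at less than the level of any other group, and the difference of differences was log2 1.06 (adjusted p = 0.0503).

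The glucocorticoid-responsive genes showed the widest gap between the 2 comparisons among the lists with 4 or more genes tested, the core clock lists aside. Glucocorticoids rise in mice before the active period, and surgery and stress raise them too; these genes are textbook targets of their receptor. Of 22 tested, 0 were called in MI (limma, 1 at an unadjusted p below 0.05, as were 6.67% of all genes), and the median log2 was -0.045, against 0.0053 over all genes. In sham hearts 9 of the 22 were called, all lower at ZT23, against 1.52% of all genes called, and the median was -0.96. The metallothionein gene Mt2, which binds zinc and responds to glucocorticoids and metals, read 7345, 6765 and 6266 in Wake-MI hearts, against 7114, 7168 and 7834 in Sleep-MI hearts. These overlapped, with a log2 difference of -0.12 and an interval from -0.80 to 0.56. The sham arrays read 441, 814 and 386 at ZT23, against 5275, 5863 and 2069 at ZT11, a log2 difference of -2.91 (adjusted p = 0.000384). The Wake-SH arrays were the low ones and Sleep-SH replicate 3 the lowest of its group. The difference of differences was log2 2.79 (adjusted p = 0.0946). Its neighbour Mt1 differed by log2 -0.91 in sham, and in MI it read 10169, 8387 and 8247 against 7925, 8934 and 9940, which overlapped.

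Other genes of the group gave like pairs of values. Fkbp5, a chaperone that dampens the glucocorticoid receptor, read 721, 749 and 461 in Wake-MI hearts and 604, 679 and 904 in Sleep-MI hearts (log2 -0.19), with a sham difference of -1.48. Map3k6, a kinase, read 247, 248 and 266 against 222, 301 and 245, and its sham difference was -1.51. The transcription factor genes Cebpd, Cebpb and Zbtb16 differed by -0.10, -0.20 and 0.12 in MI, against -1.51, -1.14 and -1.04 in sham. Pdk4, which restrains glucose oxidation in muscle, differed by 0.08 (interval -0.30 to 0.47), against -0.74 in sham, where it was not called. Map3k6, Mt1 and the 3 transcription factor genes were chosen after their values were seen. The member with the smallest adjusted p in MI, Plin4, a lipid droplet coat protein, went the other way. It read 1674, 1326 and 1032 in Wake-MI hearts, against 828, 844 and 977 in Sleep-MI hearts (log2 0.57, SE 0.17, adjusted p = 0.563), and its sham difference was -0.54.

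Immediate early genes, which are switched on within minutes of a stimulus, gave a like pair of values. Of 24 tested, 0 were called in MI (limma, 0 at an unadjusted p below 0.05), with a median log2 of -0.055 in MI and -0.51 in sham, where 3 were called lower (1.52% of all genes were called). The MI median was -0.28 without Wake-MI replicate 3. Ier3, a survival gene of this class, had the smallest adjusted p, with log2 -0.43 (adjusted p = 0.77). Heat shock genes (23 tested) had a median of 0.0059 and no call, with 3 at an unadjusted p below 0.05, against 6.67% of all genes. Dnajb4, a co-chaperone of heart and muscle, differed by -0.37 (adjusted p = 0.598). Hspa1b, an inducible chaperone whose near-identical copy Hspa1a may share its probe set, read 451, 3135 and 1981 in Wake-MI hearts, against 3595, 2263 and 2938 in Sleep-MI hearts. Wake-MI replicate 1 was far below the other two, and the groups overlapped (log2 -1.02, SE 0.51, adjusted p = 0.778). Cirbp, a cold-inducible RNA-binding protein that follows body temperature, differed by 0.18 (interval -0.39 to 0.75) in MI and by -0.996 in sham, neither of them called.

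**Figure D4:**
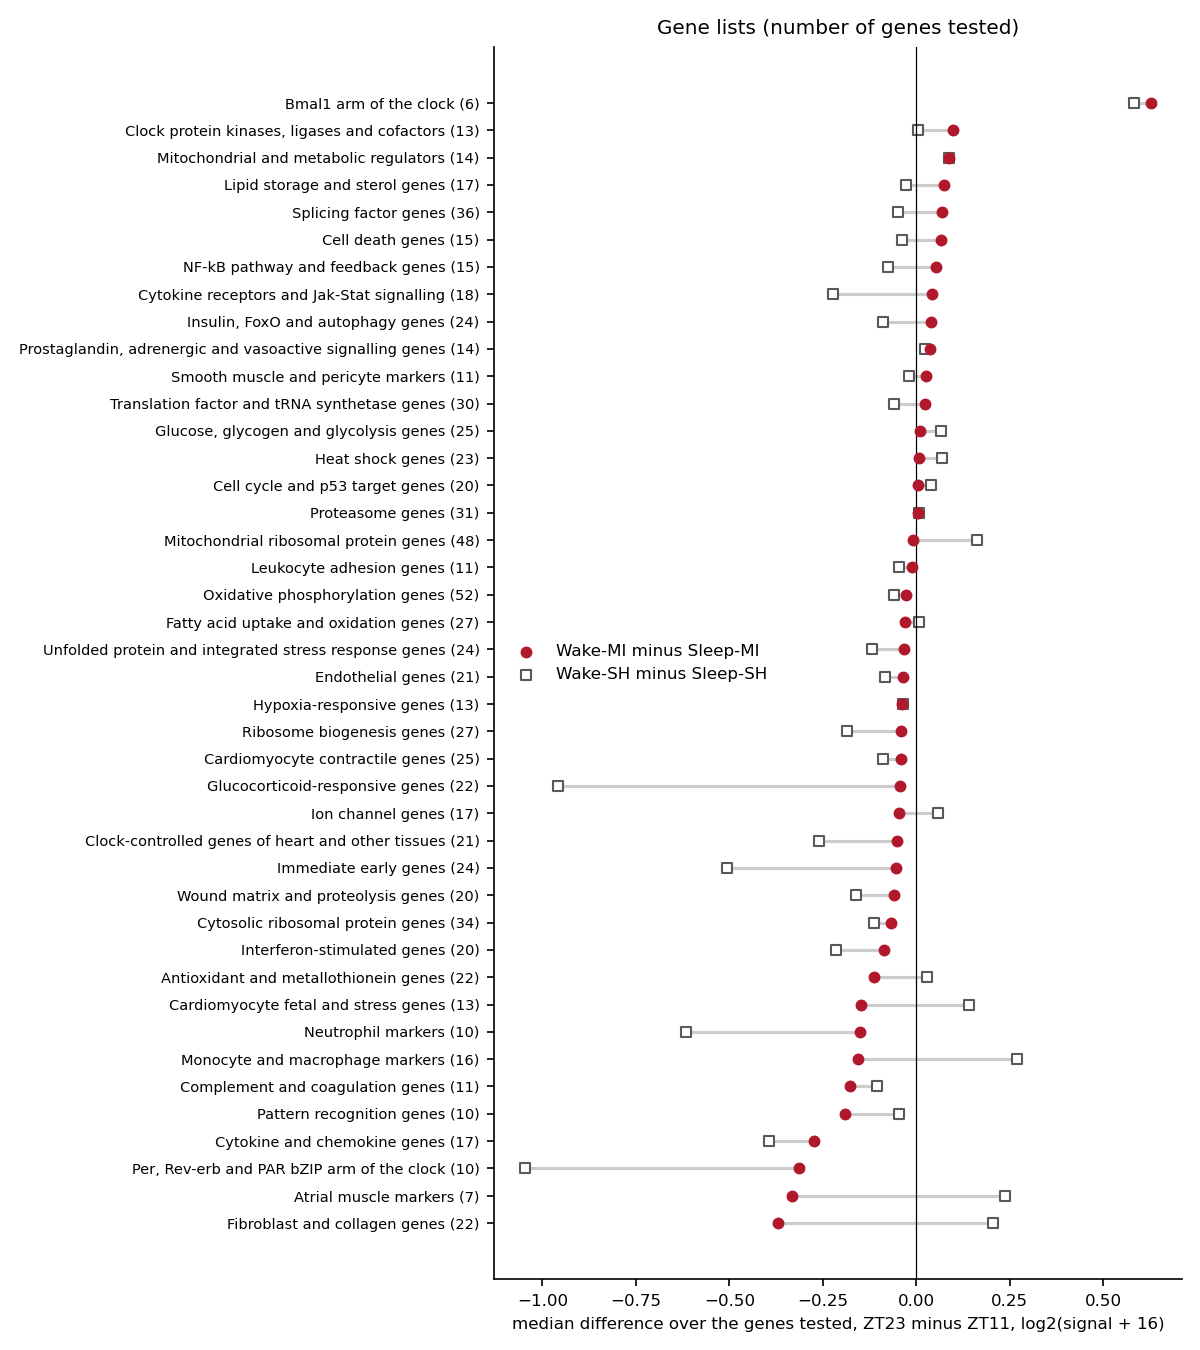
Median difference ZT23 minus ZT11 on the log2(signal + 16) scale over the tested genes of each of 42 lists with 4 or more genes tested, in MI hearts (filled circles) and sham hearts (open squares), ordered by the MI median. MI medians run from -0.37 to 0.63 and 37 of them lie within 0.2 of 0, while the glucocorticoid-responsive and the Per, Rev-erb and PAR bZIP lists lie near -1 in sham.

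Over the 42 lists with at least 4 genes tested, MI medians ran from log2 -0.37 to 0.63, and 4 lists held a called gene. Without the 2 core clock lists the highest median was 0.097. The lowest median, -0.37, was that of fibroblast and collagen genes, which encode the scaffold between heart cells. Of 22 tested, 18 had negative differences, 6 passed an unadjusted p below 0.05 (6.67% of all genes did) and 0 were called (limma). The sham median was 0.20. Over all genes the MI median was 0.0053. Members of a list were read on the same arrays, so counts of signs here and below are not independent results. Col1a1, a chain of type I collagen, read 36.0, 48.0 and 51.2 in Wake-MI hearts, against 102.5, 82.8 and 88.3 in Sleep-MI hearts. The groups did not overlap, and the log2 difference was -0.82 (SE 0.21, adjusted p = 0.49). Its sham arrays overlapped, at 119, 75.3 and 128 at ZT23 and 85.6, 60.6 and 127 at ZT11. The other 5 below that p were named after their values were seen: Col3a1 (log2 -1.16), the small proteoglycan Fmod (-0.78), the microfibril protein Mfap5 (-0.60), Col5a2 (-0.39) and the fibroblast transcription factor Tcf21 (-0.33). Mfap5 read 296, 334 and 251 in Wake-MI hearts, against 486, 405 and 466 in Sleep-MI hearts, and did not overlap. Col3a1 read 447, 608 and 1000 against 2195, 882 and 1635, and did. In bulk tissue, fewer cells of a type and less RNA per cell cannot be told apart. Summed signals of 5 fibroblast markers were 4437 to 5852 on Wake-MI and 5308 to 6658 on Sleep-MI arrays, and overlapped.

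Atrial muscle markers had a median of -0.33 over 7 genes in MI, against 0.24 in sham. Of these 7 genes, 3 had an unadjusted p below 0.05 in MI, against 6.67% of all genes, and 0 were called (limma). Myl7, the atrial myosin light chain, read 3.07, 0.727 and 1.21 in Wake-MI hearts, against 550, 121 and 158 in Sleep-MI hearts. It was close to 0 on all Wake-MI arrays and clearly measured on all Sleep-MI arrays, yet the log2 difference of -3.75 was not called, with an SE of 1.05 over the pooled spread of all groups (adjusted p = 0.553). The sham arrays read 79.3, 268 and 3476 at ZT23 and 26.3, 11.5 and 256 at ZT11, and replicate 3 was the highest in both. Sln, a regulator of the calcium pump in atria, read 0.449, 0.320 and 0.443 in Wake-MI hearts, against 270, 56.2 and 62.3 in Sleep-MI hearts, the same order of arrays in Sleep-MI. The atrial light chain Myl4 differed by -1.996. Summed over 8 atrial markers, signals were 1470 to 1962 in Wake-MI and 2306 to 3415 in Sleep-MI hearts, against 2277 to 15402 in Wake-SH and 2145 to 5214 in Sleep-SH hearts. Of the natriuretic peptide genes, Nppa differed by -0.33 (interval -1.29 to 0.62), with 1342, 952 and 1383 in Wake-MI hearts just below 1703, 1485 and 1409 in Sleep-MI hearts, and Nppb, whose groups overlapped, by -0.34 (interval -1.73 to 1.05). The labels do not say how much atrial tissue each sample held, and its part in the results was not tested.

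**Figure D5:**
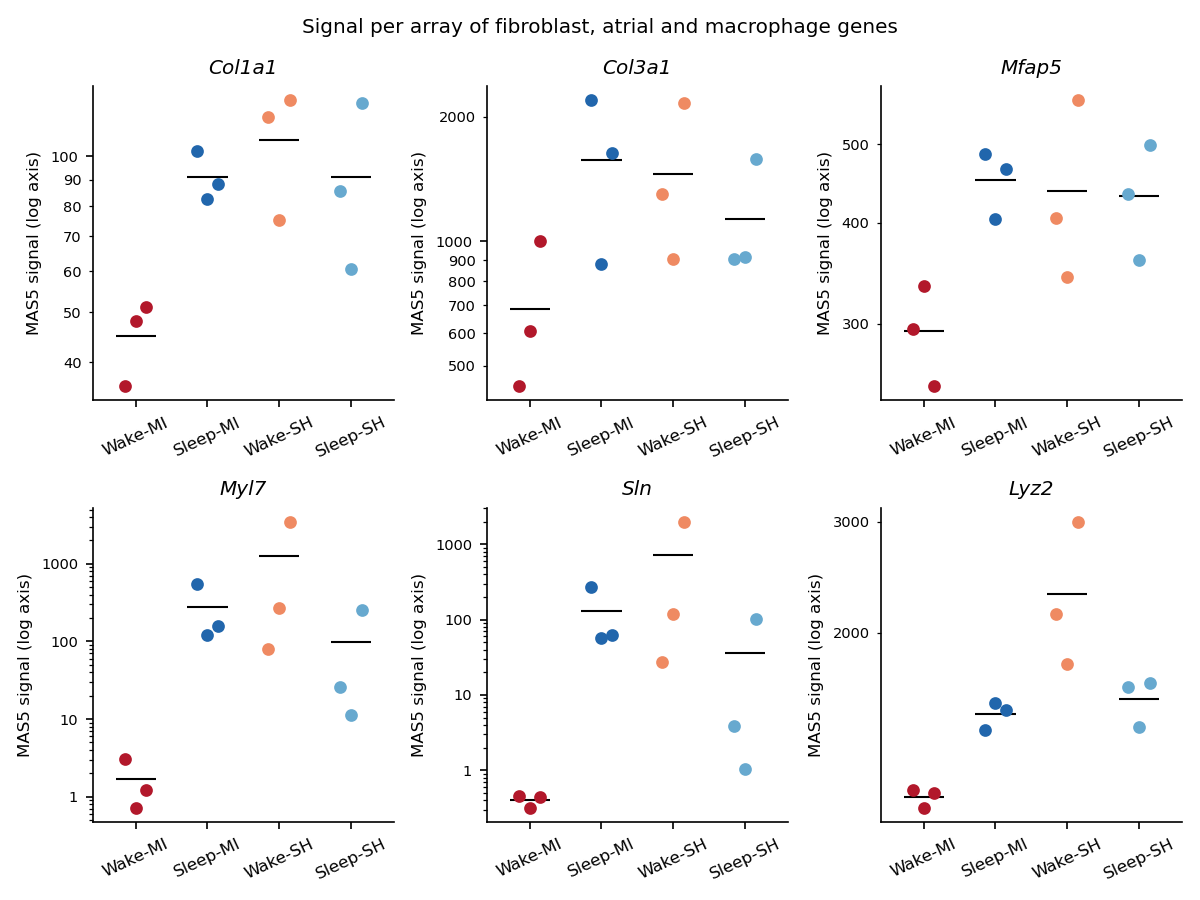
MAS5 signal (log axis) of 2 collagen genes, Mfap5, 2 atrial genes and the macrophage lysozyme gene Lyz2, 1 point per array, with a line at the mean of each group of 3. Wake-MI points lie below Sleep-MI points in 5 of the 6 panels and overlap for Col3a1. None of the 6 genes was called.

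Inflammatory genes, which neutrophils, macrophages and injured tissue express after infarction, gave no call between the infarcted groups. Of 17 cytokine and chemokine genes tested, 0 were called in MI (limma). At an unadjusted p below 0.05 there were 2, against 6.67% of all genes. Of the 17, 14 had negative differences, and the median was -0.27 in MI and -0.39 in sham. Ccl6 had the smallest adjusted p (log2 -0.27, adjusted p = 0.707). Il6, an inflammatory cytokine, read 227, 283 and 293 in Wake-MI hearts, against 446, 522 and 174 in Sleep-MI hearts, and the groups overlapped (log2 -0.36, interval -1.45 to 0.74). The neutrophil attractant Cxcl1 read 285, 400 and 441 against 581, 600 and 355, and the monocyte attractant Ccl2 read 90.3, 97.4 and 138 against 166, 213 and 131. In all 3 genes Sleep-MI replicate 3 was the lowest of its group. Tnf lay below the level filter, as did Il1a, Lif, Il11, Ccl3, Csf3, Il10 and Il1rn of the 25 genes listed. The filter used the mean level over all 12 arrays, sham arrays included. These intervals are wide, and a difference of more than log2 1 was not excluded for Il6, Cxcl1 or Ccl2.

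Markers of infiltrating cells likewise gave no call. Unadjusted counts are at p below 0.05, which 6.67% of all genes passed. Of 10 neutrophil markers 0 were called (limma, 1 unadjusted), with a median of -0.15, and the neutrophil alarmin S100a8 read 415, 490 and 412 in Wake-MI hearts, against 431, 632 and 653 in Sleep-MI hearts. The neutrophil collagenase Mmp8 differed by -0.63 (adjusted p = 0.747). Of 16 monocyte and macrophage markers 0 were called (limma, 1 unadjusted), 13 had negative differences, and the median was -0.16 in MI and 0.27 in sham. Lyz2, a lysozyme of myeloid cells, read 1127, 1056 and 1113 in Wake-MI hearts, against 1401, 1547 and 1507 in Sleep-MI hearts. The groups did not overlap (log2 -0.43, SE 0.15, adjusted p = 0.619), and in sham hearts the order was reversed, with 2138, 1781 and 2997 at ZT23 and 1639, 1414 and 1664 at ZT11. Summed signals of 7 macrophage markers were 2058 to 2418 on Wake-MI and 2663 to 2782 on Sleep-MI arrays and did not overlap. Without Lyz2, the other 6 summed to 973, 1002 and 1305 on Wake-MI and 1262, 1193 and 1275 on Sleep-MI arrays, which overlapped. Pattern recognition genes (10 tested, median -0.19) had 3 at an unadjusted p below 0.05 and 0 called (limma), with Clec7a, a receptor for fungal glucans, at -0.67 (adjusted p = 0.598). Complement and coagulation genes (11 tested, median -0.18) had 10 negative differences, and Serping1, the inhibitor of the first complement component, differed by -0.32 (adjusted p = 0.563).

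The muscle and metabolic lists given here had MI medians from -0.11 to 0.073. Tcap, called above, was in none of them. At an unadjusted p below 0.05, 6.67% of all genes passed. Contractile genes (25 tested) had a median of -0.042 and no call, with 0 at an unadjusted p below 0.05 (limma), and the calcium release channel gene Ryr2 differed by 0.14 (interval -0.07 to 0.35). Oxidative phosphorylation genes (52 tested) had a median of -0.028, again with 0 called and 0 at an unadjusted p below 0.05 (limma), and Sdha of complex II differed by -0.15. Fatty acid genes (27 tested) had a median of -0.029 and 0 calls (limma, 2 unadjusted), with Pparg, a receptor of lipid signals, at 0.46 (adjusted p = 0.692). Lipid storage and sterol genes (17 tested) had a median of 0.073, with 13 positive and 4 negative differences and 0 calls (limma, 2 unadjusted, both higher in Wake-MI). Glucose genes (25 tested) had a median of 0.0085 and 0 calls (limma, 2 unadjusted), with Ppp1r3c, which directs phosphatase to glycogen, at -0.59 (adjusted p = 0.681). Antioxidant and metallothionein genes (22 tested) held the call of Gsta3, though 16 of the 22 differences were negative and the median was -0.11. Hypoxia-responsive genes (13 tested) had a median of -0.038 and 0 calls (limma, 0 at an unadjusted p below 0.05). Among them Hmox1, heme oxygenase, read 68.1, 58.4 and 71.5 in Wake-MI hearts, against 97.5, 123 and 123 in Sleep-MI hearts, without overlap (log2 -0.67, adjusted p = 0.77).

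Genes of RNA and protein handling had medians near 0. Splicing factors (36 tested) had a median of 0.070 and 0 calls (limma). At an unadjusted p below 0.05 there were 3 of the 36, near the share of 6.67% over all genes. Son, a scaffold of nuclear speckles, read 952, 865 and 1042 in Wake-MI hearts, against 708, 634 and 732 in Sleep-MI hearts, without overlap (log2 0.45, SE 0.11, adjusted p = 0.463). The cytosolic ribosomal protein genes (34 tested) had a median of -0.069 with 29 negative differences and 0 calls (limma, 2 unadjusted), and Rps9 differed by -0.21. Cell cycle and p53 target genes (20 tested, median 0.0047) had 2 at an unadjusted p below 0.05. One was Ccna2, above. The other, named after its values were seen, was the cell cycle inhibitor Cdkn1a, with 2752, 2458 and 2176 in Wake-MI hearts, against 1136, 1262 and 1690 in Sleep-MI hearts. Its groups did not overlap (log2 0.86, SE 0.37, adjusted p = 0.707), and its sham arrays read 338, 896 and 368 at ZT23, overlapping those at ZT11 (log2 -0.26).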

How the data were processed

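The study measured messenger RNA on 12 Affymetrix arrays, 1 mouse each. The authors deposited 1 MAS5 intensity per probe set, per the submitters' processing notes, with version and settings not given in the sources used here. Trimming 2% of probe sets from both ends gave a mean of 150.1 on every array, and no further scaling was applied. Of 22690 probe sets, 64 were controls, 20380 had 1 gene symbol, 691 several and 1555 none, and single-symbol sets alone were named. Of 12393 genes, 12369 matched a GRCm38.p6 gene table, 24 did not, and 0 symbols changed. The brightest probe set stood for each gene, and 8101 genes at or above the 40th percentile (signal 16.8) were tested as log2(signal + 16).

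Differences were tested two-sided in limma 3.58.1 (R 4.3.3), with 4 group means over 12 arrays and a variance trend, giving 8 residual degrees of freedom, or 14.0 once the prior is added. The files carry no counts, so the 3 arrays per group limit precision, and exact permutation of 3 against 3 could not pass 0.05. The labels call the samples biological replicates and name no batch or scan date. Members, gene lists, tests and naming rule were chosen with earlier results of these data known. The rule takes up to 12 called genes per direction whose groups do not overlap, all core clock genes tested, up to 4 called members per direction of a described list or else the one with the smallest adjusted p, genes called in both comparisons, and a panel of 15 genes; Rbm3 of the panel was not analysed here. On 1 simulated set of arrays, the test of Wake-MI against Sleep-MI over 8101 genes found 86% of the genes set to log2 1 and 100% of those set to log2 2, and 11 of its 197 calls were unchanged genes. That set held far more changed genes than the 6 called in the data, which eases the adjusted threshold. These shares therefore do not carry over to the data, where Nr1d1 at log2 -1.08 was not called (limma, adjusted p = 0.487). Tables and plots used Python 3.11.15, pandas 2.3.3, numpy 2.4.6 and matplotlib 3.10.9. Alternatives were other pseudocounts, level filters, normalizations, variance models and probe set rules, array weights, a replicate block, the compared groups without the others, each array left out, and an adjusted p below 0.01. The beta-actin ratio as a covariate, and leaving out both replicates 3 of the MI groups, were added after seeing the data.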

Additional observations from a re-analysis of the deposited data

How the results depend on the processing

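The count of 6 genes between Wake-MI and Sleep-MI was 3 with the compared groups alone, 3 with probe sets averaged, 2 without a level filter and 2 at an adjusted p below 0.01, and 0 to 7 with 1 array left out. The sham count of 123 was 371 with array weights, 41 with the beta-actin covariate, 69 with the compared groups alone, 74 with probe sets averaged, 75 without a filter and 33 at an adjusted p below 0.01, and 30 to 226 with 1 array left out. The 3 genes called in both became 6 with array weights and 1 with the compared groups alone, without a filter or at an adjusted p below 0.01, and 0 to 4 with 1 array left out. The count of 0 for a difference between MI and sham became 39 with array weights and 0 to 35 with 1 array left out. It became 1 with the 60th percentile filter, median centring or a robust prior (Timp3 each time) and 2 with quantile normalization (Timp3 and Tcap). The cause of these shifts was not tested. Same-numbered deviations from the group means correlated at -0.161, -0.118 and -0.161 in MI and at 0.051, 0.251 and 0.127 in sham hearts. Deviations of unlike number correlated at -0.190 to 0.283 in MI and at -0.196 to 0.093 in sham hearts. With 3 arrays a group, these values cannot settle whether replicate numbers pair the samples. With a replicate block, 3 genes differed between the MI groups and 3 between MI and sham (Timp3, Mt2 and Malat1). Of 1091 alternative list medians 1078 moved by less than the spread between arrays. All-gene medians shifted by under 0.01 with scaling. With 3 arrays a group, low signals such as those of Per3 and Npas2 limit what can be told.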
